A study of Homo sapiens with 18 samples.

Results

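Footprints were set against mRNA within 3 lysates of IMR90 cells treated with inflachromene (ICM), and the gene classes with high or low ribosome load were described. IMR90 is a line of human fetal lung fibroblasts, and ICM is a compound known to bind HMGB1 and HMGB2, chromatin proteins of the high mobility group. Each lysate gave a ribosome profiling library (Ribo-seq, a readout of the stretches of mRNA that ribosomes shield from nuclease) and an mRNA-seq library, so that 6 of the 18 libraries of the series were used. The other 12 came from 3 young and 3 old lysates, that is proliferating IMR90 and IMR90 in replicative senescence, and were used only where named. The labels state no dose or length of treatment, and the study's text gives 6 days of ICM for the Ribo-seq cultures. Per the study's methods, the lysates were independent cultures harvested with cycloheximide, which stalls ribosomes on the mRNA, and the RNA for mRNA-seq was poly(A)-selected from a portion of the same lysate. The lysates are called ICM 1, 2 and 3 by their replicate numbers.

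Ribosome load is used here for the log2 ratio of a gene's Ribo-seq level to its mRNA-seq level over the coding sequence (CDS). Levels are CPM, a gene's CDS reads as counts scaled to the common CPM unit of the TMM-scaled CDS total. A load of 0 means an equal share of footprints and of mRNA reads, so load is relative to the other genes of the same lysate and says nothing of total protein synthesis. Initiation at the start codon sets how many ribosomes an mRNA carries in most cases, and known elements in the 5′ UTR lower it. Iron regulatory proteins bind a hairpin, the iron-responsive element, near the cap of ferritin mRNAs when iron is scarce. Short upstream reading frames take up scanning ribosomes before they reach the main start codon, as in the mRNA of the stress regulator ATF4. In selenoprotein mRNAs a TGA codon is read as selenocysteine, a slow step at which some ribosomes stop.

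Examples of these kinds of element, from genes described below, are shown first, and whether they set the load was not tested. They were read from the canonical transcripts of GENCODE release 44 lifted to GRCh37. Iron-responsive elements in the 5′ UTR, with the 6 bases of the loop in capitals, all lie in exon 1, for FTL at chr19:49468593-49468619 (+ strand), for FTH1 at chr11:61735047-61735073 (- strand) and for SLC40A1 at chr2:190445388-190445414 (- strand).
FTL: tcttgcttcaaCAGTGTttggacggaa
FTH1: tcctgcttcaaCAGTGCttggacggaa
SLC40A1: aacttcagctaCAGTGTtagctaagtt
The selenocysteine codon (capitals) lies inside the reading frame, for GPX4 at codon 73 of 197 (chr19:1105390-1105416, + strand), for GPX1 at codon 49 of 203 (chr3:49395553-49395579, - strand) and for TXNRD1 at codon 648 of 649 (chr12:104742179-104742199, + strand).
GPX4: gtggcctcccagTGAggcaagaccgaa
GPX1: gtggcgtccctcTGAggcaccacggtc
TXNRD1: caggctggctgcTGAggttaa
Short upstream reading frames are shown from their ATG (capitals) to their stop codon, for ATF4 at chr22:39916653-39916664 (+ strand), for PTP4A1 at chr6:64286423-64286443 (+ strand) and for SLC35A4 at chr5:139946199-139946216 (+ strand). Only short frames that end within the 5′ UTR were listed, so longer frames and frames that run into the CDS are not shown. Which upstream frame the footprints lay on was not tested.
ATF4: ATGgcgtattag
PTP4A1: ATGcagacaagtgaactgtag
SLC35A4: ATGtggtggccaaactga

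The Ribo-seq libraries were shallow and uneven. ICM 1, 2 and 3 held 225041, 78980 and 46239 CDS reads, so that 1 read stood for 4.55, 12.5 and 19.7 CPM, against 6796114 to 8114819 CDS reads in mRNA-seq. The CDS took 88.2%, 78.6% and 80.2% of the footprints. Across the 6155 genes tested, Spearman's rho between assays of the same lysate was 0.69, 0.58 and 0.52 for ICM 1, 2 and 3, and rho between mRNA-seq libraries was 0.991 to 0.994. These correlations are across genes and describe the libraries. Of 12 fibroblast markers, the summed level was 20440 to 20786 CPM in mRNA-seq and 23665 to 33138 CPM in Ribo-seq. S100A4, a member of this list, was at 1.27 to 1.84 CPM in mRNA-seq and had footprints in ICM 2 only. Epithelial and erythroid markers summed to at most 5.71 CPM in mRNA-seq and at most 24.9 CPM in Ribo-seq, the latter from KRT19 in ICM 2. The 6 endothelial markers summed to 108 to 119 CPM in mRNA-seq and 19.7 to 87.2 CPM in Ribo-seq, nearly all of the mRNA from TEK and EGFL7, while CDH5 was at 0 in mRNA-seq. The 8 leukocyte markers summed to 70.1 to 82.3 CPM in mRNA-seq and 0 to 50 CPM in Ribo-seq, nearly all of the mRNA from CD68, with CD3E, LYZ and LAPTM5 at 0. Their part in the results was not tested.

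Load spread over a wide range. The middle 90% of the 6155 genes had a fitted load between -2.23 and 1.21, with a median of -0.11. In edgeR's quasi-likelihood test with the lysate as a block, 225 genes were called high and 429 low at an adjusted p under 0.05, which is 3.66% and 6.97% of those tested. Of the 654 called genes, 649 had the same sign in all 3 lysates. Both directions together held 10.6%. Among the 1990 genes whose mean reached 100 CPM, where the depth allowed more calls, 204 were high and 199 low, together 20.3%, and the median load was 0.10. These shares are the background against which the classes are read below. The filter used the average of both assays, so 411 genes passed it with an mRNA-seq mean under 25 CPM. Of these, 14 were called high and 0 low with edgeR, as with DESeq2 (18 and 0) and limma-voom (105 and 0), and at an unadjusted p under 0.05 there were 52 and 0, since a gene with little mRNA passes only when its footprints are many.

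**Figure D1:**
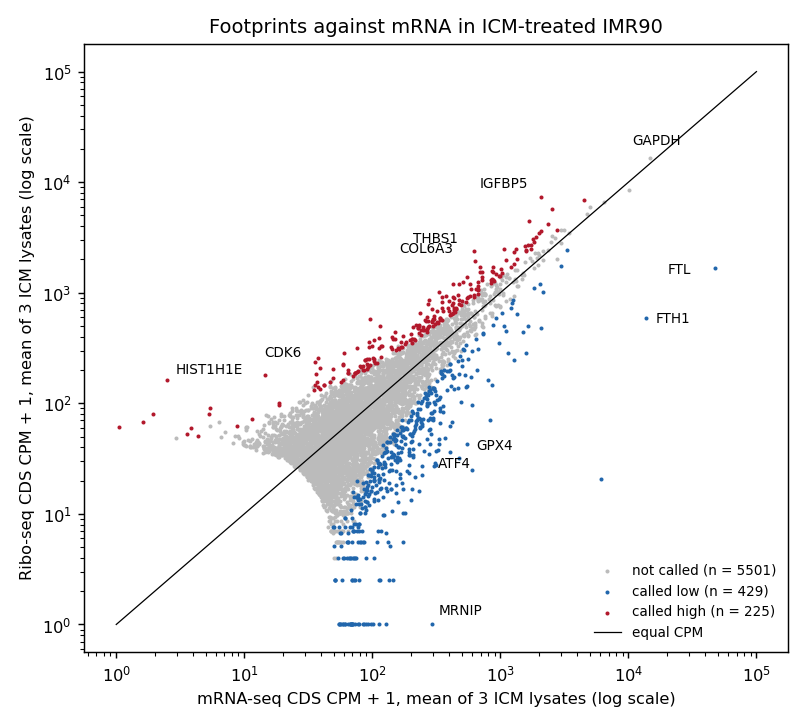
Mean Ribo-seq against mean mRNA-seq level (CDS CPM + 1, both axes on a log scale) of the 6155 tested genes over the 3 ICM lysates. Genes called low (blue, n = 429) lie under the line of equal CPM and nearly all genes called high (red, n = 225) above it, and the ferritin genes FTL and FTH1 stand far below the line at the right end.

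Ferritin mRNAs were by far the most abundant of the 10 with the lowest load. FTL, the ferritin light chain, was at 46864, 49924 and 44506 CPM in mRNA-seq and at 1786, 1545 and 1657 CPM in Ribo-seq in ICM 1, 2 and 3. The assays differed by a factor of 28.3 in the fit, with a load of -4.82 (SE 0.13, adjusted p = 5.49e-29). FTH1, the heavy chain, was at 14446, 14328 and 12540 CPM in mRNA-seq and at 818, 523 and 434 CPM in Ribo-seq, a load of -4.52 (SE 0.16, adjusted p = 1.36e-24). No footprint level of either gene reached its mRNA level in any lysate. FTL held the most mRNA-seq CDS reads of all genes. The FTH1 value was not a whole number in any of the 6 libraries, and how its reads were assigned is not given in the sources used here, so the gene is uncertain to that extent.

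The iron exporter SLC40A1, which has the same kind of hairpin, was also called low. It stood at 280, 283 and 274 CPM in mRNA-seq and at 59.1, 74.8 and 39.5 CPM in Ribo-seq (load -2.23, SE 0.40, adjusted p = 9.44e-05). EPAS1, a hypoxia-inducible transcription factor, had 802, 824 and 789 CPM of mRNA and 227, 199 and 59.2 CPM of footprints (load -2.18, SE 0.26). No match to the searched hairpin lay in the annotated 5′ UTR of its canonical transcript. A hairpin that departs from the searched pattern would be missed, so EPAS1 is not shown to lack one. The search read the sense strand for CNNNNNCAGTGN followed by 5 bases that pair with the 5 before the loop, G-T pairs allowed, and it matched 18 of 18604 annotated 5′ UTRs (0.0968%). Of 7 tested genes with a match, 3 were called low and 0 high. Of the 16 tested members of the iron list, 4 were low and 0 high, and the median load was 0.07, while the list's pooled reads, most of them from ferritin, gave a load of -3.24 ± 0.18 (SD, n = 3). TFRC, the transferrin receptor, whose hairpins lie in the 3′ UTR, had a load of 0.40 (SE 0.20, adjusted p = 0.232). Without ICM 3 it was called high (load 0.51, adjusted p = 0.0377), and the iron list then held 3 high and 4 low calls.

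The low calls among selenoproteins were both glutathione peroxidases. GPX4, which reduces lipid peroxides, was at 546, 536 and 558 CPM in mRNA-seq and at 68.2, 37.4 and 19.7 CPM in Ribo-seq (load -3.44, SE 0.35, adjusted p = 1.11e-09). GPX1 was at 315, 315 and 320 CPM in mRNA-seq and at 145, 37.4 and 138 CPM in Ribo-seq (load -1.54, SE 0.35, adjusted p = 0.00227). Both were below their mRNA level in every lysate, and the call of GPX1 was lost without ICM 2 (load -1.17, adjusted p = 0.0832). TXNRD1, a thioredoxin reductase, had 2949, 2997 and 2993 CPM of mRNA and 3159, 3514 and 1795 CPM of footprints, with a load of -0.11 (SE 0.16). Of 14 tested selenoproteins, 2 were called low and 0 high, with a median of -0.14. The place of the first in-frame TGA differed among them, and the genes were grouped by it after their values were seen, so no test was made. In 6 genes it lay in the last 5% of codons, and their loads ran from -0.17 to 1.15 with a median of -0.03. In the other 8 it lay earlier, and their loads ran from -3.44 in GPX4 to 2.03 in DIO2, which rested on 12 footprints, with a median of -1.0.

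**Figure D2:**
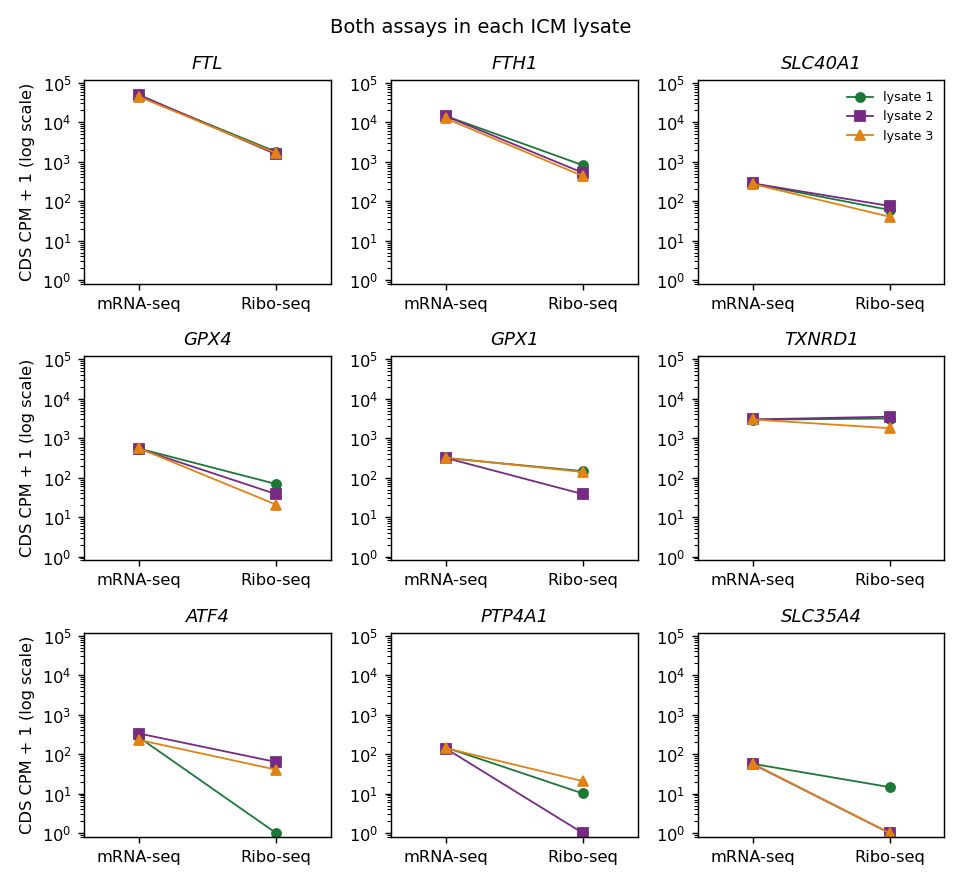
mRNA-seq and Ribo-seq levels (CDS CPM + 1, log scale) of 9 genes in each of the 3 ICM lysates, with a line joining the assays of a lysate. Lines fall steeply in all 3 lysates for FTL, FTH1, GPX4, ATF4 and PTP4A1 and are nearly level for TXNRD1 in ICM 1 and 2.

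Among mRNAs with known regulatory upstream reading frames, 3 of 21 tested were called low and 1 high, and the median was -0.61. ATF4 was at 265, 333 and 228 CPM in mRNA-seq and at 0, 62.3 and 39.5 CPM in Ribo-seq (load -3.65, SE 0.56, adjusted p = 8.72e-06). PPP1R15A, which directs dephosphorylation of the initiation factor eIF2, had 4261 mRNA-seq reads over the 3 libraries and 3 footprints in its CDS, all in ICM 2. Its level was 23.4-fold lower in Ribo-seq, with an exact 95% Poisson interval of 8.02 to 114 that covers counting error only. PTP4A1, a phosphatase, also had 3 footprints and was 16.6-fold lower (5.69 to 80.6). SLC35A4 had 3 as well, at a 6.56-fold lower level (2.25 to 31.8), and missed the call (adjusted p = 0.0618). MDM2, the p53 ubiquitin ligase, was the member called high, with 355, 212 and 98.6 CPM of footprints against 98.7, 91.9 and 94.5 CPM of mRNA (load 1.24, SE 0.39, adjusted p = 0.0348).

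Most of the few footprints of these low genes lay in the 5′ UTR. The share is of 5′ UTR plus CDS footprints. Few CDS footprints, which make the load low, therefore also raise the share, and it is no independent readout. ATF4 had 6, 5 and 5 footprints in the 5′ UTR of ICM 1, 2 and 3 and 7 in the CDS in all, so that 69.6% of 23 lay upstream (exact binomial 95% interval 47.1% to 86.8%). The share was 88.0% of 25 in SLC35A4 (68.8% to 97.5%), 78.6% of 14 in PTP4A1 (49.2% to 95.3%) and 66.7% of 9 in PPP1R15A (29.9% to 92.5%). In mRNA-seq the 5′ UTR took 36.0%, 52.3%, 51.3% and 11.9% of the reads of the same genes in the same order. The mRNA-seq share of PTP4A1 lay within its footprint interval, and those of the other genes lay below theirs. Upstream footprints were not limited to genes with a low load, since ATF5 had 11 of 19 (57.9%, 33.5% to 79.7%) at a load of -0.06 (SE 0.98), EIF5 11 of 44 and AZIN1 14 of 53. Some members of the list had none, such as SQSTM1 with 0 of 2315 and UCHL1 with 0 of 811. Over all 6003 tested genes with a matched transcript, 1.12% ± 0.40 of footprints and 15.4% ± 1.98 of mRNA-seq reads lay in the 5′ UTR (mean ± SD, n = 3 lysates).

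Across all genes, load was lower with more ATGs in the annotated 5′ UTR. The median fitted load was 0.05 in the 3878 genes with 0 upstream ATGs, -0.34 in the 1045 with 1, -0.65 in the 501 with 2, -0.78 in the 236 with 3 and -0.89 in the 343 with 4 or more. Called genes were split 194 high and 148 low among genes with 0 upstream ATGs, and 0 high and 56 low among those with 4 or more. The same order held within ICM 2 and ICM 3, and in ICM 1 except that genes with 2 were lower, at -0.68, than genes with 3, at -0.61. Spearman's rho of load with the number of upstream ATGs was -0.30 over 6003 genes and -0.28 over the 1944 of them that reached 100 CPM. As a description, 42.0% of 18604 annotated 5′ UTRs hold at least 1 ATG.

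Genes with more upstream ATGs also had longer 5′ UTRs and CDSs, with median CDS lengths of 1224 bases at 0 and 2280 at 4 or more, and lower levels. Within 5′ UTRs over 100 and up to 200 bases long, the median load was 0.09 in 1098 genes without and -0.51 in 550 genes with an upstream ATG. Within 5′ UTRs over 200 and up to 400 bases long it was 0.16 in 491 and -0.50 in 822. Spearman's correlation of load with CDS length was -0.12, and the median load was -0.02 for CDSs up to 600 bases and -0.48 over 4800 bases. The share of footprints in the 5′ UTR went from 0.562% ± 0.235 at 0 upstream ATGs to 1.73% ± 0.416 at 1, 4.06% ± 0.957 at 2, 4.44% ± 2.26 at 3 and 5.62% ± 1.97 at 4 or more (mean ± SD, n = 3). The mRNA-seq share went from 16.2% ± 2.12 to 16.8% ± 1.22 between the ends of this range. These shares are of 5′ UTR plus CDS reads, so fewer CDS footprints also raise the Ribo-seq share. Pooled over genes, load in young and old lysates was also lower at 4 or more than at 0 upstream ATGs in each of the 6, going from between -0.02 and 0.36 to between -0.86 and -0.53, so the order was not seen in ICM lysates alone.

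**Figure D3:**
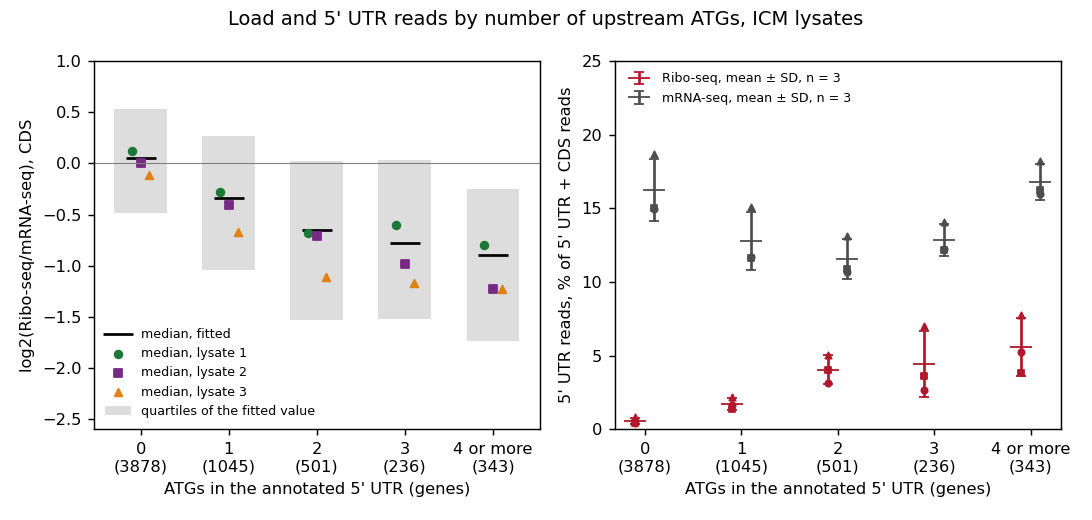
Left, fitted load (log2 of Ribo-seq over mRNA-seq; bars show quartiles, black lines medians, symbols the median in each ICM lysate) by the number of ATGs in the annotated 5′ UTR, with gene numbers in brackets. Right, the percentage of 5′ UTR plus CDS reads that lay in the 5′ UTR (mean ± SD over 3 lysates and single lysates), which went from 0.562% to 5.62% in Ribo-seq and stayed between 11.6% and 16.8% in mRNA-seq.

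Genes of polyamine metabolism, whose translation is known to respond to polyamines through frameshifting or upstream frames, included low calls as well. Of 8 tested, 3 were called low and 0 high, with a median of -0.93. OAZ1, the antizyme made by a frameshift, was at 1287, 1302 and 1256 CPM in mRNA-seq and at 227, 162 and 355 CPM in Ribo-seq (load -2.45, SE 0.23). SAT1, which acetylates polyamines, had 174, 174 and 165 CPM of mRNA and 3 footprints, a 20.0-fold lower level (exact 95% Poisson interval 6.85 to 97.1). SRM, spermidine synthase, had a load of -0.90 (SE 0.30, adjusted p = 0.0482) that was lost without ICM 3 (adjusted p = 0.178).

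High calls were frequent among secreted matrix proteins and in the contractile cytoskeleton. Of 44 tested matrix proteins other than collagens, 11 were high and 3 low, with a median of 0.44. THBS1, thrombospondin 1, was at 620, 613 and 643 CPM in mRNA-seq and at 2527, 2281 and 2406 CPM in Ribo-seq, a factor of 3.85 (load 1.95, SE 0.16, adjusted p = 6.61e-12). FN1, fibronectin, had a load of 1.17 (SE 0.14) and CCN2, a matricellular growth factor, 1.43 (SE 0.15). TIMP3, an inhibitor of metalloproteinases, had 36.7, 40.7 and 36.7 CPM of mRNA and 186, 125 and 316 CPM of footprints (load 2.37, SE 0.49). LTBP3, which holds latent TGF-beta in the matrix, went the other way, with 170, 175 and 176 CPM of mRNA and 27.3, 0 and 0 CPM of footprints (load -3.52, SE 0.65).

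Collagens and the enzymes that modify them were closer to the other genes. Of 39 tested, 7 were high and 2 low, with a median of 0.13. COL6A3 was at 608, 701 and 598 CPM in mRNA-seq and at 1468, 1932 and 2466 CPM in Ribo-seq (load 1.58, SE 0.17, adjusted p = 7.89e-09). SERPINH1, the collagen chaperone, had a load of 1.30 (SE 0.17), and P3H3, a prolyl hydroxylase, was the lowest called member at -1.50 (SE 0.49). COL1A2 was among the 5 genes with most reads in both assays, with a load of 0.01 (SE 0.14, adjusted p = 0.977). In the secretory list, 4 of 24 were high and 2 low. IGFBP5, which binds insulin-like growth factors, was at 2038, 2104 and 2068 CPM in mRNA-seq and at 6613, 7901 and 7515 CPM in Ribo-seq (load 1.82, SE 0.14, adjusted p = 2.17e-13). With the UTR reads of mRNA-seq counted in, the sign turned (load -0.41). VEGFC was its lowest called member (load -1.35, SE 0.42).

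Of 36 tested actin and contractile genes, 16 were high and 1 low, the largest share of any list of 10 or more genes, with a median of 0.43. VCL, vinculin, was at 353, 340 and 351 CPM in mRNA-seq and at 891, 835 and 1026 CPM in Ribo-seq (load 1.39, SE 0.20). TAGLN, transgelin, had 123, 107 and 112 CPM of mRNA and 318, 299 and 868 CPM of footprints (load 1.93, SE 0.30). ACTG2 had 97.7, 99.3 and 89.2 CPM of mRNA and 391, 262 and 1085 CPM of footprints (load 2.37, SE 0.31), so that ICM 3 was highest for both. Actin genes have near-identical copies, and values of ACTG2, ACTA2 and ACTA1 (load 3.70, SE 0.64) are uncertain as single genes. For 27 of the 36 genes of the list at least 1 value was not a whole number. TMSB10, a thymosin that binds actin monomers, was the member called low (load -1.17, SE 0.23). Of 26 integrin and focal adhesion genes 5 were high and 1 low, and ITGA2 was the highest (load 1.93, SE 0.43). VIM and LMNA, of 7 intermediate filament genes, were both called high at 0.85 (SE 0.14) and 0.90 (SE 0.19).

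**Figure D4:**
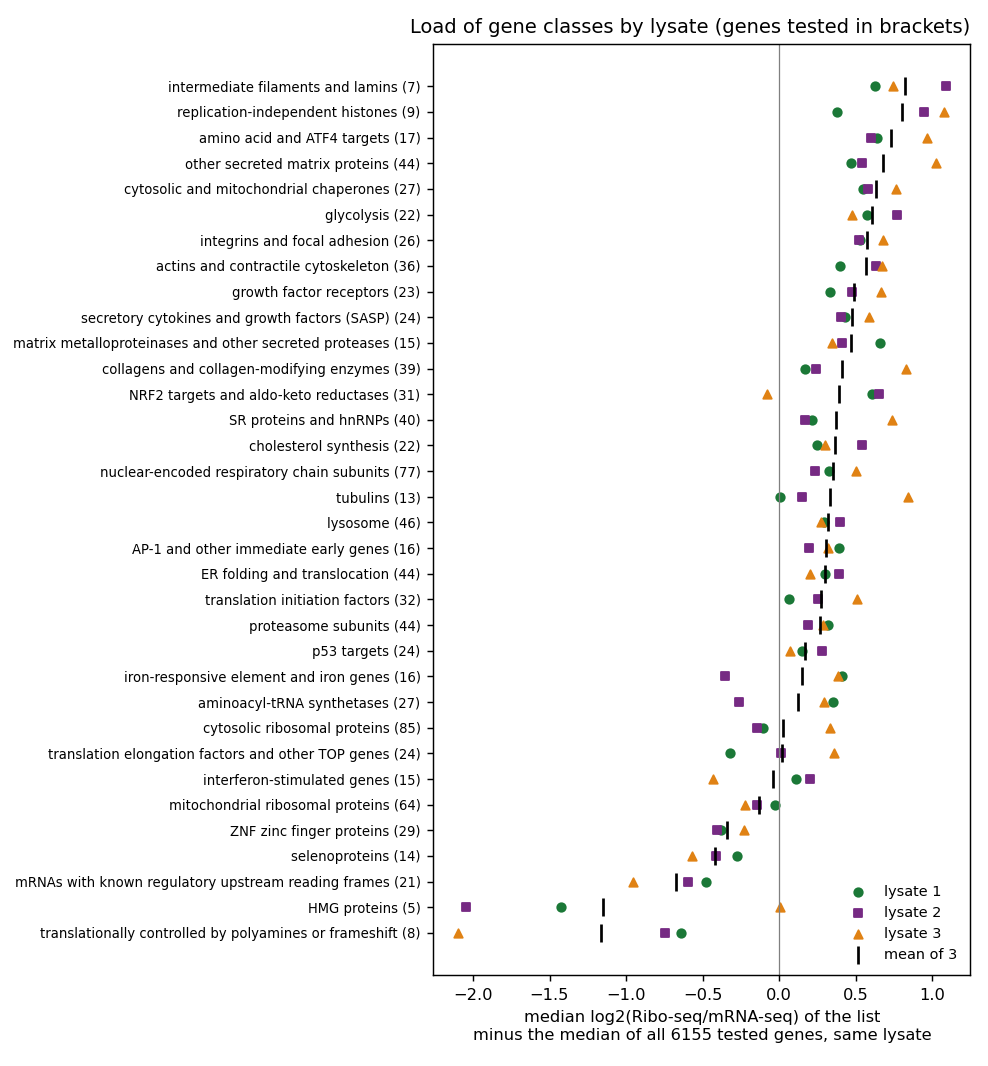
Median load of 34 gene lists in each ICM lysate (symbols) and their mean (black bars), less the median of all 6155 tested genes in the same lysate, on the log2 scale. Secreted matrix, chaperone, glycolysis and actin lists lie to the right of 0 in all 3 lysates, the upstream reading frame, selenoprotein and polyamine lists to the left in all 3, and the NRF2 list is near 0 in ICM 3 only.

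Ribosomal protein mRNAs had calls in both directions. Of 85 tested, 6 were high and 13 low, with a median of -0.09. Among all 1990 genes that reached 100 CPM, 204 were high and 199 low (together 20.3%), so such calls are not particular to this class. Pooled over the class, footprints were at 36393, 33173 and 37320 CPM against 42167, 42341 and 38023 CPM of mRNA, a load of -0.20 ± 0.16 (SD, n = 3). RPS2 was at 2062, 2079 and 2082 CPM in mRNA-seq and at 336, 399 and 710 CPM in Ribo-seq (load -2.22, SE 0.20, adjusted p = 4.46e-11). RPLP0, of the ribosomal stalk, had a load of -1.81 (SE 0.20). At the other end RPL38 had 116, 129 and 90.4 CPM of mRNA and 255, 324 and 375 CPM of footprints (load 1.46, SE 0.32). RPL10L was higher (2.82, SE 0.43), but it is a near-identical copy of RPL10. For 43 of the 85 genes at least 1 value was not a whole number, and how such reads were assigned is not given in the sources used here.

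Other mRNAs with a terminal oligopyrimidine tract also had calls in both directions. Of 24 tested, 4 were high and 5 low. PABPC1, the poly(A)-binding protein, was at 625, 609 and 554 CPM in mRNA-seq and at 127, 62.3 and 98.6 CPM in Ribo-seq (load -2.58, SE 0.30), and TPT1 had a load of -1.72 (SE 0.19). EEF2, which moves the ribosome along the mRNA, was at 2053, 2108 and 2063 CPM in mRNA-seq and at 3777, 3913 and 3274 CPM in Ribo-seq (load 0.82, SE 0.14). EEF1A1, which brings tRNA to the ribosome, had a load of -0.26 (SE 0.12, adjusted p = 0.192), and without ICM 3 it was called low (-0.30, adjusted p = 0.00547). Among initiation factors, EIF4G2 was low at 1608, 1595 and 1585 CPM of mRNA and 286, 212 and 355 CPM of footprints (load -2.52, SE 0.21). Of 32 initiation factors 1 was high and 2 low, and of 64 mitochondrial ribosomal proteins 1 was high and 0 low.

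Glycolysis, chaperone, NRF2 and respiratory chain genes had high calls and no low calls. Glycolysis had 5 of 22 genes high (median 0.51), cytosolic and mitochondrial chaperones 7 of 27 (median 0.49), NRF2 targets and aldo-keto reductases 7 of 31 (median 0.39), and respiratory chain subunits encoded in the nucleus 6 of 77 (median 0.17). High calls made up 3.66% of all tested genes and 204 of the 1990 that reached 100 CPM. The respiratory chain share lay between these, so it is not read as a trait of the class, and without ICM 3 it held 1 high call. SLC2A1, the glucose transporter, was at 1048, 1053 and 1095 CPM in mRNA-seq and at 2695, 3091 and 1598 CPM in Ribo-seq (load 1.19, SE 0.17). PKM, pyruvate kinase, had a load of 0.62 (SE 0.13), and GAPDH, the gene with most footprints, 0.15 (SE 0.12, adjusted p = 0.507). Without ICM 3, GAPDH was called high (0.26, adjusted p = 0.00732). SLC7A11, the cystine transporter, had 240, 223 and 241 CPM of mRNA and 791, 860 and 296 CPM of footprints (load 1.47, SE 0.25). The lysosome list had 6 of 46 genes high, proteasome subunits 2 of 44, ER folding genes 5 of 44 with 1 low, and aminoacyl-tRNA synthetases 1 of 27.

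Proliferation genes could hardly be described. Of 50 cell cycle genes, 13 passed the filter and 0 were called with edgeR, with 4 having an mRNA-seq mean of at least 25 CPM. At an unadjusted p under 0.05 5 were high and 0 low, and DESeq2 called 1 and limma-voom 8 high. Their summed mRNA-seq level was 419, 419 and 424 CPM, while their summed Ribo-seq level was 654, 1059 and 2505 CPM. The footprints thus differed between lysates far more than the mRNA, and were highest in ICM 3. Of 74 replication-dependent histone genes 14 were tested and 5 called high, all 5 with under 5 CPM of mRNA in every library. These mRNAs end in a stem-loop in place of a poly(A) tail, and mRNA-seq was poly(A)-selected. HIST1H1E had 1.27, 1.53 and 1.61 CPM of mRNA and 77.3, 74.8 and 335 CPM of footprints (load 6.42, SE 0.99). The summed footprints of the class were 1377, 1807 and 3551 CPM, again highest in ICM 3. Among the 8 members with an mRNA-seq mean of at least 25 CPM, the median load was -0.56 with 0 called by edgeR or DESeq2, and 1 high and 1 low by limma-voom as at an unadjusted p under 0.05. In reads, footprints in ICM 1, 2 and 3 were 144, 85 and 127 for the cell cycle genes and 303, 145 and 180 for the histones. The higher CPM in ICM 3 thus came with its low depth and not with more reads than in ICM 1. The source of the higher footprint level in ICM 3 was not tested. For the low mRNA level of cell cycle genes, fewer cycling cells and less RNA per cell cannot be told apart in these bulk lysates.

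The other lists held few calls, and their highest and lowest called members are given here. Secreted proteases had 3 of 15 genes high and 0 low, with ADAMTS1 (load 1.12, SE 0.17) and PLAT, the tissue plasminogen activator (0.85, SE 0.19), at the ends. Of 24 p53 targets 4 were high and 0 low, from GDF15 (0.71, SE 0.23) to ACTA2 (1.43, SE 0.32). ACTA2 is in the actin list too and, as said there, is uncertain as a single gene. Of 17 amino acid and ATF4 targets 3 were high, with the glutamine transporter SLC1A5 lowest (1.09, SE 0.20) and SLC7A11 highest, and 0 low. Growth factor receptors had 1 of 23 high, IGF2R (0.71, SE 0.19), and 1 low, FGFR1 (-1.55, SE 0.27). Splicing factors of the SR and hnRNP families had 2 of 40 high, SRSF2 highest (1.38, SE 0.40), and HNRNPC low (-1.92, SE 0.35). In cholesterol synthesis HMGCS1 was high (1.34, SE 0.42) and its transcription factor SREBF2 low (-1.55, SE 0.41), with 2 high and 1 low of 22. Interferon-stimulated genes had 1 of 15 high, STAT2 (1.33, SE 0.42), and 2 low, HLA-E lowest (-1.03, SE 0.34). The load of STAT2 was 1.43, 2.28 and -1.28 in ICM 1, 2 and 3, so that ICM 3 lay on the other side of 0. MCL1, which blocks apoptosis, was the only call among 16 immediate early genes (1.28, SE 0.41), and it was lost without ICM 3 (adjusted p = 0.302 in edgeR's test). Of 13 tubulins, 9 replication-independent histones and 2 metallothioneins, edgeR and DESeq2 called 0, limma-voom called 3, 2 and 1 high, and 1, 2 and 0 had an unadjusted p under 0.05 in edgeR's test.

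Single calls completed the lists described above. Among folding and degradation genes, HSPA1A was highest (load 1.31, SE 0.44) and HSP90AB1 lowest called (0.52, SE 0.17) of the chaperones, PSMD1 (1.10, SE 0.27) and PSMB1 (1.09, SE 0.25) were the proteasome subunits, SPCS3, of the signal peptidase, led the ER list and SEC62, of the translocon, was its low call (-1.06, SE 0.32). In the lysosome ATP6V1A, a proton pump subunit, was highest (1.53, SE 0.29) and LAMP1 lowest called (0.64, SE 0.21). In the mitochondrion NDUFB6 (1.93, SE 0.57) and ATP5F1A (0.59, SE 0.20) bounded the respiratory chain calls, and MRPS21 was the mitochondrial ribosomal protein (1.74, SE 0.57). ALDOA was the lowest called glycolytic enzyme (0.52, SE 0.16) and WARS the tRNA synthetase (1.34, SE 0.29). EIF5A was the high initiation factor (0.87, SE 0.24), and ITGB5 the low integrin (-1.44, SE 0.29). EEF1A2 (2.89, SE 0.93) has 7.32 to 8.36 CPM of mRNA and a related gene in EEF1A1, with which it may share reads. ZNF460 (6.64, SE 1.12) has under 1 CPM of mRNA. ZNF219 had 1 footprint against 65.8 to 71.6 CPM of mRNA, a 24.1-fold lower level (exact 95% Poisson interval 4.33 to 954).

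HMG proteins, the targets of ICM among them, gave few values. Of 10 listed, 5 were tested and 0 called with edgeR or DESeq2, against 1 low with limma-voom and 2 low at an unadjusted p under 0.05. HMGB1 was at 98.8, 104 and 89.7 CPM in mRNA-seq and at 86.4, 150 and 178 CPM in Ribo-seq (load 0.39, SE 0.46, adjusted p = 0.697), so the groups overlapped. HMGN1, a nucleosome-binding protein, had the smallest adjusted p of the 5, 0.0522 in edgeR's test, with a load of -1.59 (SE 0.55). HMGB2 did not pass the filter, with 4.56, 7.04 and 7.02 CPM of mRNA and 3 footprints in all. Of 533 ZNF genes 29 were tested, with 1 high and 2 low and a median of -0.20. The ZNF genes thus mostly lay under the filter.

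The ends of the range among genes whose mean reached 100 CPM held further single genes. Lowest of these by fit was MRNIP, with 301, 284 and 282 CPM of mRNA and 0 footprints in all 3 lysates, at least 33.9-fold lower against a floor of 3 reads over the 3 libraries. MRNIP overlaps SQSTM1 on the other strand by 2946 bases (chr5:179262133-179289173, - strand, and chr5:179233398-179265078, + strand, GRCh37), and how strand entered the counting was not stated, so its mRNA reads are uncertain. LOC112268284 had 5277 to 7498 CPM of mRNA and 3 footprints. KIAA0100 (load -4.07, SE 0.39), the kinesin KIF1C (-3.99, SE 0.40), TTC3 (-3.79, SE 0.45) and the phosphatase subunit PPP1R12C (-3.78, SE 0.66) came after ferritin and PPP1R15A among the genes at this level. Highest of them by fit after RPL10L were CDK6 (2.73, SE 0.47), ACTG2, TIMP3, ATL3 (2.26, SE 0.38), DPYSL2 (2.18, SE 0.55), CLDN11 (2.04, SE 0.35), KPNA6 (2.00, SE 0.47), SPCS3 (1.99, SE 0.43) and THBS1. CDK6, a cyclin-dependent kinase, was at 33.8, 34.1 and 35.6 CPM in mRNA-seq and at 186, 299 and 217 CPM in Ribo-seq, and its load was -0.12 with the UTR reads of mRNA-seq counted in.

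Without ICM 3, the shallowest library, 317 of 6127 genes were called high (5.17%) and 433 low (7.07%). Of the 654 genes called with all 3 lysates, 557 were called in the same direction (192 high, 365 low) and 0 in the opposite one. Ferritin, GPX4, GPX1, ATF4, PPP1R15A, PTP4A1 and SLC40A1 were still called low. Called counts of the classes moved little for the actin list (15 high, 2 low) and the collagen list (7 high, 2 low). They moved more for the matrix list (15 high, 3 low) and ribosomal proteins (7 high, 21 low). The same held for the NRF2 list (14 high, 0 low), glycolysis (9 high, 0 low) and respiratory chain subunits (1 high, 0 low). In the NRF2 list ICM 3 stood apart, with a median load relative to all tested genes of 0.61, 0.65 and -0.08 in ICM 1, 2 and 3. TXNRD1, GAPDH and SLC7A11 also had their lowest footprint level in ICM 3. Of the genes named here, DPYSL2 (adjusted p = 0.121), MRPS21 (0.137), HSPA1A (0.125), P3H3 (0.0947), VEGFC (0.0663), ATP5F1A (0.0566) and HLA-E (0.0507) were not called without ICM 3, nor were SRM and MCL1.

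**Figure D5:**
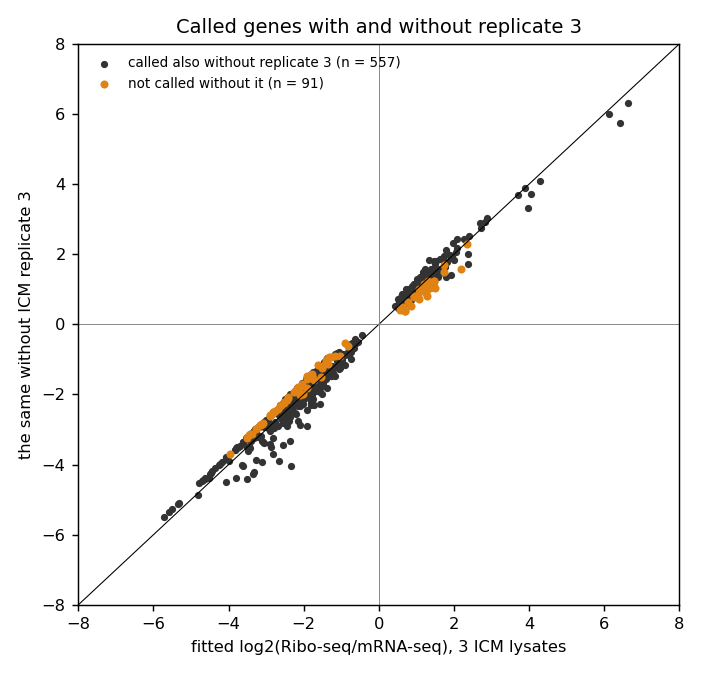
Fitted load of the called genes with all 3 ICM lysates against the fit without replicate 3 (log2 scale; 39 genes beyond 8 on either side are left out). The 557 genes called in both (black) and the 91 not called without replicate 3 (orange) lie on the same side of 0 in both fits.

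In the fit of all 18 libraries, the load of ICM lysates differed from that of young lysates for 64 of the 6155 genes (1.04%), with 16 higher (0.26%) and 48 lower (0.78%) in ICM. It differed from that of old lysates for 19 genes (0.309%), with 3 higher (0.0487%) and 16 lower (0.26%). All 14 tested replication-dependent histone genes were among the 48 lower than in young, and 4 were among the 16 lower than in old. Their mRNAs lack a poly(A) tail and mRNA-seq was poly(A)-selected, so their load is uncertain. Ferritin FTL was lower in ICM than in old lysates, by -1.98 (SE 0.24, adjusted p = 1.52e-07 in edgeR's test). Against young lysates its difference was -0.02 (SE 0.25, adjusted p = 0.986).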

How the data were processed

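The authors deposited estimated counts per gene symbol (38716 symbols) for each library, split by transcript region and not scaled to depth. The submitters' processing notes name STAR 2.6.0c, featureCounts and GRCh37, without saying for which assay, and how reads with several matches or strands were counted is not given in the sources used here. CDS counts were rounded and scaled by TMM. For load, quasi-likelihood models (glmQLFit, glmQLFTest; edgeR 4.0.16, R 4.3.3) were fitted to the 6 ICM libraries with a term for the lysate. Genes entered when their mean CPM, averaged over assays, was at least 25. P-values were two-sided and adjusted by the Benjamini-Hochberg method, and SE was taken from the fit. The pairing comes from the methods, by which the assays shared a lysate, and deviations of paired libraries correlated with r = -0.031, 0.019 and -0.001. The differences in load between conditions were tested as interactions in the fit of all 18 libraries. P-values of load measure the spread of the ratio over these 3 lysates, and those of the differences its spread over all lysates of the 18 libraries.

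Named genes were the 10 highest and 10 lowest calls that reached a mean of 100 CPM and had the same sign in all lysates, the highest and lowest called gene of each list, and the 5 genes with most reads per assay. SLC40A1, PTP4A1, SLC35A4, OAZ1, TXNRD1, TFRC, CCN2, FN1, SERPINH1, EEF2, RACK1, TPT1, RPLP0, RPL38, VCL, TAGLN, and the members of small lists, were named after their values were seen. The lists and the analysis were chosen with earlier results of these data known. Transcript features were matched by symbol to GENCODE release 44 on GRCh37 for 6003 of 6155 genes. In simulated counts for this comparison (6155 genes), 12% and 22% of genes with a load of 1 and -1 and 54% and 60% with 2 and -2 were recovered, with 1 false call. Mitochondrially encoded genes were not analysed here, and some named genes are not reported here. Intervals cover counting error only. Alternatives used limma 3.58.1 and DESeq2 1.42.0.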

Additional observations from a re-analysis of the deposited data

Results flagged for a closer look

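Among the 64 genes whose load differed between ICM and young lysates and the 19 that differed between ICM and old lysates, the named genes are given here with their differences on the log2 scale. These differences rest on the interaction term of edgeR's fit.

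The ferritin genes were lower in ICM than in old lysates, by -1.98 for FTL (SE 0.24, adjusted p = 1.52e-07) and -1.43 for FTH1 (SE 0.24, adjusted p = 0.000172). Against young lysates the FTL difference was -0.02 (SE 0.25, adjusted p = 0.986). FTL mRNA was at 6684 to 7384 CPM in young and 5269 to 5687 CPM in old libraries, and its footprints at 191, 195 and 688 CPM and at 594, 760 and 1059 CPM. The highest young value belonged to young 1 and the highest old value to old 2, libraries with 34.4% and 15.0% of their reads in the CDS. Without old 2 the FTL difference from old was -1.84 (adjusted p = 8.73e-06), and without young 1 the difference from young was 0.34 (adjusted p = 0.487).

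Several of the named genes had a higher load in ICM. ACTG2 was higher by 1.86 than in young and by 1.85 than in old, and ACTA2 by 1.37 and 1.29. Actin genes have near-identical copies, so both are uncertain as single genes. Against young, TAGLN was higher by 1.4, CLDN11 by 1.42, TIMP3 by 1.17 (adjusted p = 0.0329 in edgeR's test), COL6A3 by 0.98 and SERPINH1 by 0.77 (adjusted p = 0.0322). The elongation factors EEF2 and EEF1A1 were higher by 1.01 and 0.91 and RACK1 by 0.95, also against young. A higher load here does not mean more footprints. For ACTG2, ACTA2, TAGLN, CLDN11, TIMP3 and COL6A3 both assays were lower in ICM than in young, the mRNA by more. ACTG2 mRNA was at 89.2 to 99.3 CPM in ICM and 1003 to 1133 CPM in young. Its footprints were at 262 to 1085 CPM in ICM and 1129 to 1651 CPM in young. For EEF2, RACK1 and SERPINH1 the mRNA was lower in ICM, while the footprints overlapped those of young. Lower in ICM than in young were PTP4A1 (-3.06), TMSB10 (-1.87), SEC62 (-1.13), EIF4G2 (-0.92) and the histone genes HIST1H2AE (-6.27) and HIST1H1E (-4.63). In edgeR's test the adjusted p was 0.0272 for PTP4A1, 0.0351 for SEC62 and 0.0433 for EIF4G2. The mRNA of HIST1H2AE was at 0 to 0.318 CPM and that of HIST1H1E at 0.14 to 0.4 CPM in young libraries, so these fitted differences depend on the prior count too. LTBP3 was lower than in old (-2.61). MRNIP, which had 0 footprints in ICM, differed by -10.68 and -11.45 in the fit, values that depend on the prior count and are no bound.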

How the results depend on the processing

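Without the replicate block, that is with the lysates unpaired, 1659 genes were called (726 high, 933 low), and the differences from young and old held 188 and 62 genes. Limma-voom called 1263 (797 high), and the fit of all 18 libraries 1730 (731 high, 999 low). Thinning Ribo-seq to its shallowest library, added after the data were seen, gave 246 (75 high, 171 low). A mean of at least 100 CPM gave 429 (256 low), filterByExpr 294 (141 low) and 10 against old, no filter 130 high, an absolute load over 1 left 121 high, and counting mRNA-seq UTR reads gave 647 low. Leaving out 1 lysate gave 261 to 750 called genes, 83 to 317 high (83 without ICM 2, 86 without ICM 1) and 175 to 433 low (175 without ICM 1). With 1 lysate of any condition left out, 26 (without young 2 or young 3) to 98 (without ICM 3) genes differed from young and 6 (without old 1) to 39 (without ICM 1) from old.

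Medians of lists relative to all tested genes ranged, over the lysates left out, from -0.18 to 0.02 for ribosomal proteins, -0.13 to 4.80 for replication-dependent histones, 0.16 to 0.57 for collagens, 1.16 to 2.89 for the cell cycle and -1.03 to -0.46 for upstream reading frames. Ribosomal proteins were at -0.38 and upstream reading frames at -0.033 with filterByExpr. Histones were at 3.10 with no filter and -0.25 with a filter on mRNA-seq alone. With UTR reads counted, collagens were at 0.71 and upstream reading frames at -0.75. The cause was not tested.

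Single genes that changed sign were CDK6 (-0.12), IGFBP5 (-0.41) and EEF1A1 (0.19) with UTR reads counted, and GAPDH (-0.017 with no filter, -0.16 with filterByExpr, -0.032 to 0.26 with 1 lysate left out, the former without ICM 1). TXNRD1 went to 0.015 with limma-voom and ran from -0.31 to 0.15 with 1 lysate left out, the latter without ICM 3. COL1A2 went to -0.017 with RLE scaling and with DESeq2, -0.041 with limma-voom, -0.15 with no filter, -0.086 at 100 CPM, -0.30 with filterByExpr, -0.012 with 18 libraries and -0.032 with thinned Ribo-seq, and ran from -0.23 (without ICM 3) to 0.14 with 1 lysate left out. FTL, FTH1, GPX4, ATF4, RPS2, PABPC1, THBS1 and COL6A3 kept their call under every alternative that tested them. Among named genes, calls were lost by 14 with DESeq2, 36 with thinned Ribo-seq, 13 with UTR reads counted, and 31, 30 and 9 without ICM 1, 2 and 3. With 46239 to 225041 footprints per library, loads of 1 or -1 were mostly not detectable at the depth of an average gene, so a gene that was not called is not shown to be evenly loaded.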
